A study of Mus musculus with 4 samples.

Results

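The 6 genes described here, Acly (gene ID 104112), Fasn (14104), Elovl6 (170439), Aacs (78894), Lpin1 (14245) and Pnpla3 (116939), act in the synthesis of fatty acids and triglyceride, and were followed across genotype and feeding state in mouse liver. They were taken by symbol from the first sheets of 2 deposited gene tables, which together hold 943 genes. All 6 stand in the refed table (284 genes), and Elovl6 and Aacs also stand in the fasted table (722 genes). The choice rested on measured values, because the genes were picked for their lower level in the refed library of the targeted genotype. That difference is therefore a description here.

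RNA from liver gave 4 libraries, with 1 library for each genotype in each feeding state, so every comparison below sets 1 library against another and no p-value can be given for it. Control mice are labelled wild type with shNC, and targeted mice are labelled liver Cyb5b with shCyb5a, each either fasted or refed. In the tables the columns are headed WT and L_A, and L_A was taken as the targeted genotype because that is the one label that is not wild type. The kind of Cyb5b allele, the hairpin vector, the strain, sex and age of the mice, the times of fasting and refeeding, and whether a library holds 1 mouse or a pool are not stated in the labels. Cyb5a and Cyb5b encode cytochromes b5, haem proteins that carry electrons to membrane enzymes of sterol and fatty acid synthesis. Cyb5a stood at 1686 TPM (transcript level scaled for transcript length and to a fixed total per library) in the fasted control, 207 in the fasted targeted, 1274 in the refed control and 166 in the refed targeted library. Cyb5b stood at 72.4, 27.4, 174 and 49.5 TPM in the same order, so transcript of both genes was lower in both libraries labelled as targeted. None of the 6 hepatocyte markers on the list used, among them Alb and Apoa1, is among the 943 genes, so the labelled tissue could not be checked by them. Library depth, estimated from recovered reads, was about 13500000 to 14100000 reads.

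Liver makes fatty acids from citrate after a meal, when insulin and glucose act through the transcription factors SREBP-1c and ChREBP. ATP citrate lyase (Acly) splits citrate into acetyl-CoA, fatty acid synthase (Fasn) builds palmitate, and the elongase Elovl6 lengthens palmitate toward stearate. Acetoacetyl-CoA synthetase (Aacs) returns the ketone body acetoacetate to lipid synthesis in the cytosol. Lipin 1 (Lpin1) is a phosphatidate phosphatase that makes the diacylglycerol from which triglyceride is formed, and it also acts with nuclear receptors in the fasted liver. Pnpla3 encodes a protein of lipid droplets with lipase and acyltransferase activities.

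The start regions of 5 of the genes are shown, 4 with their highest level in the refed control library and Lpin1 with its highest in the fasted control library. Aacs, also highest in the refed control library, was searched but is not printed. RefSeq sequences of build GRCm38.p6 were matched by gene identifier for 6 of 6 genes, and the 250 bases before each annotated start are printed 5′ to 3′ in the direction of the gene. Capitals mark matches on either strand to CCAAT (the NF-Y box), GGGCGG (the Sp1 box), CACGTG (the E-box) or CACCCCA (core of a sterol regulatory element). The windows are chr11:120824548-120824797 on the minus strand, chr11:100528001-100528250 on the minus strand, chr15:84167566-84167815 on the plus strand, chr3:129532136-129532385 on the plus strand and chr12:16610967-16611216 on the minus strand.
Fasn: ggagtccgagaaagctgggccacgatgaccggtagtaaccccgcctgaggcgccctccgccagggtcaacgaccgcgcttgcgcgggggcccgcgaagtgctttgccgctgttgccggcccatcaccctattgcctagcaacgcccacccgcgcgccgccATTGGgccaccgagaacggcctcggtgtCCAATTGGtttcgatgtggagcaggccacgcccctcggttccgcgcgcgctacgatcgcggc
Acly: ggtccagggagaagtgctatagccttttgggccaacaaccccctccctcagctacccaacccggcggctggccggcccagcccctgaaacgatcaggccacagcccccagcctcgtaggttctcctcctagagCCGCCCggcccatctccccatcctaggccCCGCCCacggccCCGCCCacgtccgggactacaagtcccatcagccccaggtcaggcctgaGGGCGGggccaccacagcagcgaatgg
Pnpla3: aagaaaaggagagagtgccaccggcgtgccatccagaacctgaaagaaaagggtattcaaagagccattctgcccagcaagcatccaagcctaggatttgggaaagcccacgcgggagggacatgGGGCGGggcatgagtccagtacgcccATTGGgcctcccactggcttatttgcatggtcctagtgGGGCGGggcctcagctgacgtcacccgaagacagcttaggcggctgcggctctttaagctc
Elovl6: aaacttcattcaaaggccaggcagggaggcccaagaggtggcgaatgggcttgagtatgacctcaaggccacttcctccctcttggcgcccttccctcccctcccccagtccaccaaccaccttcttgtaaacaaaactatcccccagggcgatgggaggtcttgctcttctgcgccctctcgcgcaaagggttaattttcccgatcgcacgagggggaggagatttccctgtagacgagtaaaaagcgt
Lpin1: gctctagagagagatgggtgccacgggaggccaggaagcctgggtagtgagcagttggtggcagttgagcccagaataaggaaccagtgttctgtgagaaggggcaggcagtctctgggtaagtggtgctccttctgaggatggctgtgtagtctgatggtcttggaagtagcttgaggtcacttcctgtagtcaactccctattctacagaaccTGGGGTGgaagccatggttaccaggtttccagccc

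The Fasn window held 3 NF-Y boxes, of which those at positions -62 and -59 overlap on opposite strands, counting the base before the start as -1. The Acly window held 4 Sp1 boxes between positions -117 and -27. The Pnpla3 window held 1 NF-Y box and 2 Sp1 boxes. Lpin1 held the only match to the sterol element core among the 6 genes, at position -35 on the opposite strand. The Elovl6 and Aacs windows held none of the 4 motifs, and none of the 6 held an E-box. Matches to different motifs did not overlap. Over 32851 mouse gene starts in the same sequence set, 33.8% of such windows held an NF-Y box, 32.7% an Sp1 box, 6.68% the sterol element core and 6.02% an E-box. These matches describe letters in 1 window per gene, and factor binding was not measured. The GC content was 69.2% for Fasn, 68.8% for Acly, 62.4% for Aacs, 58.4% for Pnpla3, 56.4% for Elovl6 and 54.8% for Lpin1, against a median of 52.4% over all the windows.

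The first comparison asks how the genes differ between fasted and refed control liver. Of the 6 genes, 5 had a refed TPM at least 2-fold above the fasted TPM of control liver, and Lpin1 was at least 2-fold lower. Among the 943 genes, 17.0% were at least 2-fold higher and 44.8% at least 2-fold lower by the same measure. Pnpla3, Fasn and Acly ranked 2, 5 and 10 by this ratio among the 921 genes with a value above 0 in both control libraries, and Aacs and Elovl6 ranked 36 and 51. The 943 genes were chosen by the authors on genotype differences in either state, and the refed control library enters both that choice and this ratio. Of the 62 genes lower in the refed targeted library, 66.1% were at least 2-fold higher in refed than fasted control liver. Neither the ranks nor the shares stand for all liver genes.

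Acly, which supplies cytosolic acetyl-CoA, stood at 23.6 TPM in the fasted control, 32.5 in the fasted targeted, 655 in the refed control and 283 in the refed targeted library. Both refed libraries were above both fasted libraries, and the refed control was the highest. The refed level was 27.8-fold higher than the fasted level in control liver (24.1 to 32.2) and 8.70-fold higher in targeted liver (7.62 to 9.99). Ranges in parentheses are 95% Clopper-Pearson intervals that cover counting error only. By FPKM, a level scaled for transcript length and library size, the Acly ratios were 29.5 in control and 10.5 in targeted liver. The targeted value lies above its TPM interval.

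Fasn, the enzyme that builds palmitate, stood at 6.44 TPM in the fasted control, 9.01 in the fasted targeted, 393 in the refed control and 122 in the refed targeted library. Its order over the 4 libraries was the same as that of Acly. Refed over fasted, it was 61.0-fold higher in control (46.9 to 80.9) and 13.5-fold higher in targeted liver (10.6 to 17.5).

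Elovl6, the elongase that follows Fasn, stood at 30.1 TPM in the fasted control, 13.8 in the fasted targeted, 167 in the refed control and 26.6 in the refed targeted library. Unlike Acly and Fasn, its refed targeted level lay below even the fasted control level, at 0.882 times that level in TPM and 0.920 times in FPKM. The refed level was 5.55-fold the fasted level in control liver (5.30 to 5.82) and 1.92-fold in targeted liver (1.77 to 2.09). On the FPKM scale the targeted ratio was 2.31-fold, past 2-fold.

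Aacs, the activator of acetoacetate, stood at 8.63 TPM in the fasted control, 3.22 in the fasted targeted, 61.1 in the refed control and 17.2 in the refed targeted library. The refed libraries were again the higher pair. Its refed over fasted ratio was 7.08 in control (6.28 to 8.0) and 5.34 in targeted liver (4.31 to 6.68), the closest pair of ratios among the 5 genes that were higher after refeeding.

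Pnpla3, the lipid droplet gene, stood at 0.38 TPM in the fasted control, 0.30 in the fasted targeted, 96.5 in the refed control and 35.5 in the refed targeted library. It was close to the limit of the 2 printed decimals in both fasted libraries, where the fewest reads allowed by the deposited values are 16 and 11. The refed over fasted ratio was 254 in control (156 to 445) and 118 in targeted liver (65.9 to 237), so these intervals overlap. With a pseudocount of 1 TPM, the log2 ratio in control liver was 6.14 in place of 7.99.

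Lpin1, the phosphatidate phosphatase, went the other way. It stood at 131 TPM in the fasted control, 95.6 in the fasted targeted, 41.0 in the refed control and 19.6 in the refed targeted library. Both fasted libraries were above both refed libraries. The refed level was 3.20-fold lower than the fasted level in control (3.06 to 3.33) and 4.87-fold lower in targeted liver (4.59 to 5.18). By FPKM the level was 3.01-fold lower in control and 4.05-fold lower in targeted liver, both outside these intervals.

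**Figure D1:**
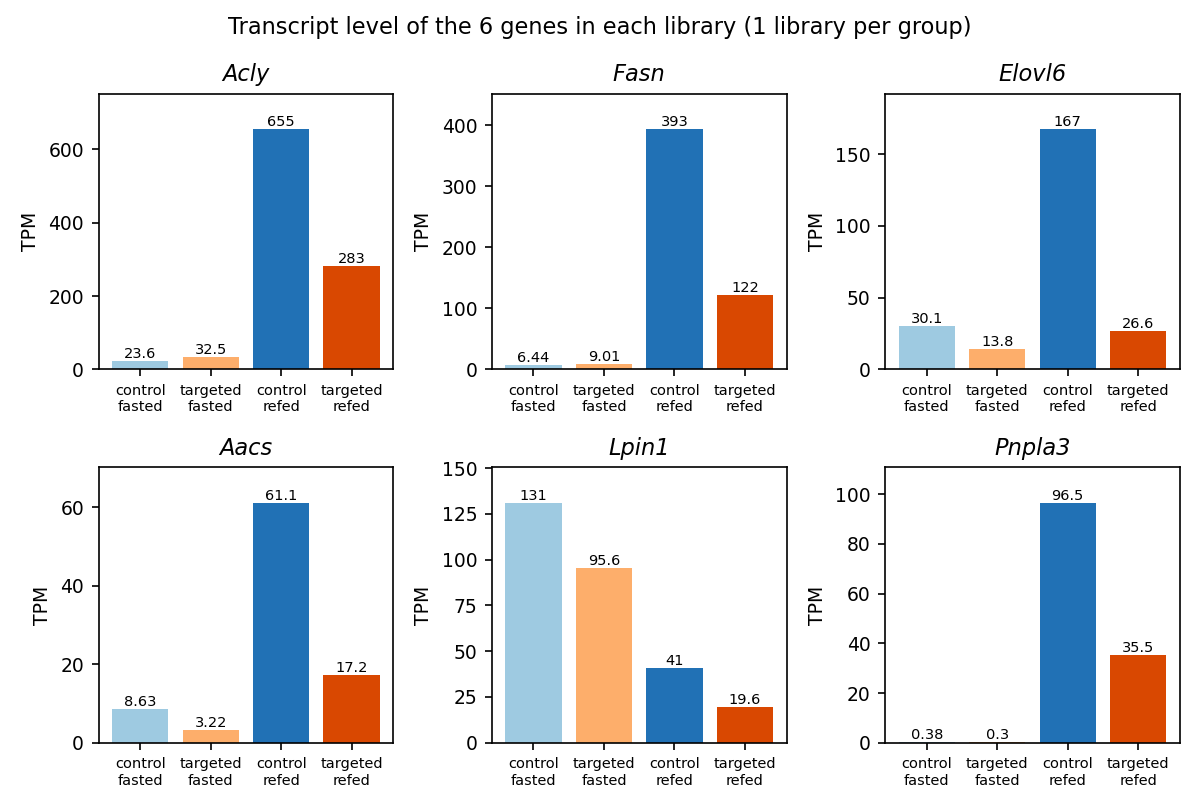
Transcript level in TPM (vertical axes from 0, scaled for each gene) of the 6 genes in the fasted control, fasted targeted, refed control and refed targeted liver library; each bar is 1 library, so there are no error bars. Acly, Fasn, Elovl6, Aacs and Pnpla3 have their tallest bar in the refed control library (655, 393, 167, 61.1 and 96.5 TPM), whereas Lpin1 is tallest in the fasted control library at 131 TPM.

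**Figure D2:**
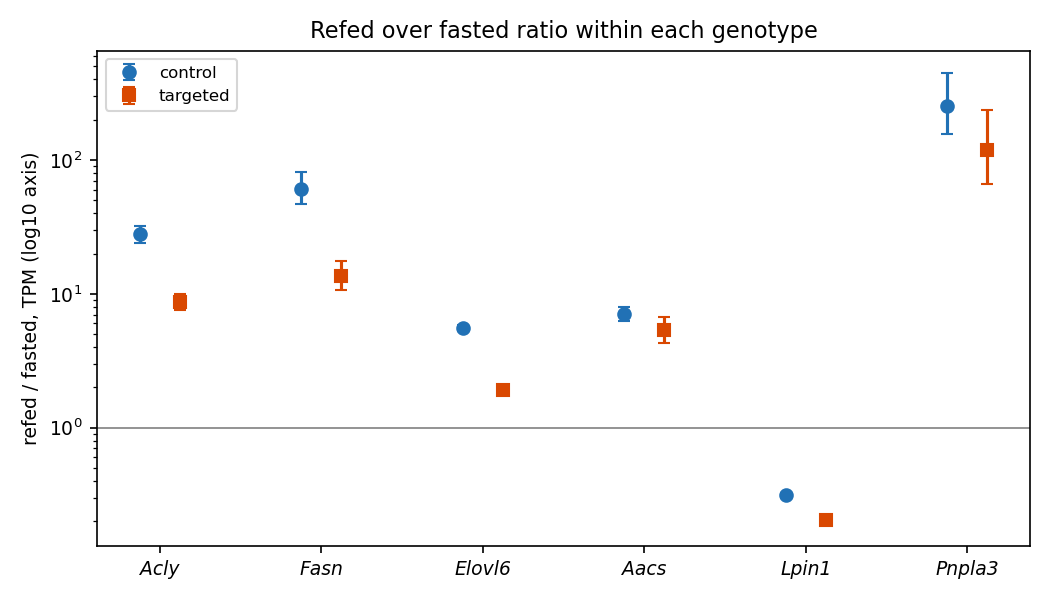
Refed over fasted ratio of TPM (log10 axis) for each gene in control (circles) and targeted (squares) liver, with 95% counting intervals and 1 library per group. Ratios run from 0.313 for Lpin1 to 254 for Pnpla3 in control liver and from 0.205 to 118 for the same genes in targeted liver.

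The order of the genes within a library also changed with feeding. By TPM, which is scaled for transcript length, the fasted control library ran from Lpin1 through Elovl6, Acly, Aacs and Fasn to Pnpla3, with the first 345 times the last. The refed control library ran from Acly through Fasn, Elovl6, Pnpla3 and Aacs to Lpin1, and the first was 16 times the last. In the refed targeted library Pnpla3 stood above Elovl6, and Lpin1 above Aacs. The neighbouring pairs there were 35.5 against 26.6 TPM and 19.6 against 17.2 TPM, and with no replicates the spread between mice behind such an order is not known. Together the 6 genes made up 0.0200% of all TPM in the fasted control, 0.0154% in the fasted targeted, 0.141% in the refed control and 0.0503% in the refed targeted library.

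The refed comparison of the genotypes, the one on which the genes were chosen, sets lower cytochrome b5 transcript against control after food. All 6 genes were at least 2-fold lower in the targeted library in the authors' deposited table and by TPM. Of all its 284 genes, 21.8% were lower, and 21.1% were at least 2-fold lower by TPM. Because the genes were picked on this contrast, nothing is read from that count.

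Elovl6 differed most, with a control level 6.30 times the targeted level (6.0 to 6.61). The control level was 3.22 times the targeted level for Fasn (3.01 to 3.45), 3.55 times for Aacs (3.25 to 3.88), and Pnpla3 was 2.72-fold lower (2.57 to 2.88), Acly 2.32-fold (2.21 to 2.43) and Lpin1 2.09-fold (1.96 to 2.23). In the authors' deposited table their log2 ratios ran from -2.66 for Elovl6 to -1.07 for Lpin1, which place Elovl6 as 10 and Lpin1 as 56 of the 62 lower genes, counted from the lowest ratio. Summed over the 5 genes without Lpin1, the level was 1372 TPM in the refed control and 484 TPM in the refed targeted library, 2.84-fold lower. The FPKM ratios differed from these by a log2 shift of 0.03.

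In the fasted state the 6 genes did not share a direction. Aacs was 2.68-fold lower in the targeted library (2.13 to 3.39) and Elovl6 2.18-fold lower (2.01 to 2.36), and these are the 2 of 6 in the fasted table, where 69.7% of genes were lower and 45.6% at least 2-fold lower by TPM. Counting any size of difference, 4 of the 6 were lower in TPM, beside 43.7% of the genes of the refed table. Lpin1 was 1.37-fold lower (1.32 to 1.42). Pnpla3 stood at 0.38 and 0.30 TPM, with an interval for the targeted over control ratio of 0.331 to 1.81 that includes no difference. That interval uses the fewest reads allowed, 16 and 11, and is the widest for counting error at that ratio.

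Acly and Fasn had the higher level in the fasted targeted library, 1.38-fold (1.14 to 1.67) and 1.40-fold (0.968 to 2.03) in TPM, and 1.19-fold and 1.21-fold in FPKM. Both intervals use the fewest reads allowed by the deposited values and are therefore the widest for counting error at those ratios. Neither gene is in the fasted table. Between the fasted libraries the factor from FPKM to TPM is 1.5 in the targeted and 1.30 in the control library, which moves every fasted TPM ratio up by 0.21 on the log2 scale relative to FPKM. By FPKM, Elovl6 was 2.51-fold lower, Aacs 3.09-fold lower and Lpin1 1.58-fold lower in the fasted targeted library. The direction of each of the 6 genes was the same on both scales.

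**Figure D3:**
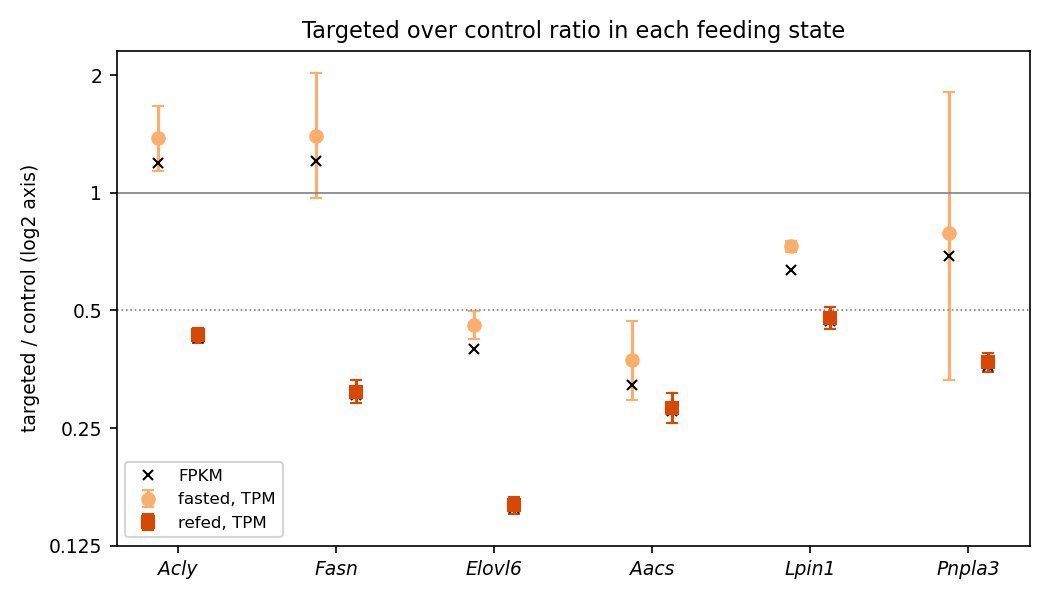
Targeted over control ratio (log2 axis) of each gene in the fasted (circles) and refed (squares) state, in TPM with 95% counting intervals, with the FPKM ratio as crosses; 1 library per group. The refed ratios all lie under the dotted line at 0.5, from 0.159 for Elovl6 to 0.479 for Lpin1, and the fasted ratios run from 0.373 for Aacs to 1.40 for Fasn.

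Markers of other cell types differed between the same libraries, and fewer cells of a type and less RNA per cell cannot be told apart in whole liver. Of 5 markers on each list, 4 endothelial, 2 macrophage, 3 lymphocyte and 1 adipocyte marker are among the 943 genes, and none of these is at 0 in any library. Their summed TPM in the fasted control and fasted targeted libraries was 47.0 and 19.9 (endothelial), 37.0 and 14.1 (macrophage), 16.2 and 4.44 (lymphocyte) and 52.2 and 23.0 (the adipocyte marker Fabp4). In the refed control and refed targeted libraries the sums were 15.1 and 23.4, 8.39 and 19.6, 4.84 and 8.01, and 29.3 and 36.3. All 4 sums were thus lower in the targeted than in the control library when fasted and higher when refed. The 6 lipid genes were lower in the refed targeted library. The 943 genes were kept for a genotype difference in at least 1 state, so markers without one are absent and the choice favours a difference. Over all genes, 69.7% of the fasted table were lower and 78.2% of the refed table were higher, so these directions are those of most genes there. The part of these cell types in the ratios of the 6 genes was not tested.

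The feeding states were then set side by side. The targeted over control log2 ratio was below its fasted value after refeeding for each gene, by 2.17 for Fasn, 1.68 for Acly, 1.53 for Elovl6, 1.1 for Pnpla3, 0.61 for Lpin1 and 0.41 for Aacs in TPM. In FPKM the differences were 1.99, 1.5, 1.35, 0.93, 0.43 and 0.22. By TPM 4 of the 6 fell by at least 1, beside 16.1% of the 267 genes of the refed table with TPM above 0 in every library and 69.1% of the 55 of these that were lower in the refed table. The share of 4 in 6 is thus near that of the lower genes at large. For Pnpla3 the fasted interval, 0.331 to 1.81, also holds its refed ratio of 0.368, though it rests on the fewest reads allowed. Fasn and Acly pointed in opposite directions in the 2 states, as 43.8% of the 267 genes and 49.1% of the 55 did. The choice of genes as lower in the refed targeted library favours this direction, and no test of the difference is possible with 1 library per group. Aacs had the closest genotype ratios in the 2 states among the 6 genes, -1.42 fasted and -1.83 refed on the log2 TPM scale. Fasn had 0.48 and -1.69.

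Expressed as the gain in TPM on refeeding, targeted liver had 9.29% of the control gain for Elovl6, 26.7% for Aacs, 29.2% for Fasn, 36.6% for Pnpla3 and 39.6% for Acly. The loss of Lpin1 TPM on refeeding was 84.4% of the control loss. These shares were computed in TPM only and would differ in FPKM. The factor from FPKM to TPM is 1.5 in the fasted targeted and 1.30 in the fasted control library. Within targeted liver, 4 of the 6 genes were at least 2-fold higher and Lpin1 at least 2-fold lower after refeeding, where 23.3% and 18.0% of the 943 genes were. Between the targeted libraries the TPM ratio lies 0.27 below the FPKM ratio on the log2 scale, and by FPKM 5 genes, Elovl6 included, were past 2-fold.

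Other genes of the pathway were taken from 4 lists, covering fatty acid synthesis, triglyceride synthesis, NADPH supply and regulators of lipogenesis. Of the 67 genes on these lists, 6 of them the genes above, 15 are in either table, and the other 52 were not analysed here. The refed table lists 13 of them, of which 6 are the genes picked for being lower there, so nothing is read from a count over all 13. Of the other 7, 5 were lower and 2 higher in the authors' deposited table, beside 21.8% lower and 78.2% higher over all its genes. The median log2 ratio of these 7 was -1.15, against 1.20 over the whole refed table. These lists were drawn up with earlier results of the same tables known, so the count is a description. The fasted table lists 4, Elovl6 and Aacs lower and 2 others higher, beside 69.7% lower and 30.3% higher over all its genes.

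In fatty acid synthesis, both acetyl-CoA carboxylases, which make malonyl-CoA for Fasn, were lower in the refed targeted library. Acaca stood at 7.46, 9.78, 89.3 and 33.6 TPM in the fasted control, fasted targeted, refed control and refed targeted library, 2.66-fold lower in the refed pair (2.51 to 2.81). Acacb stood at 15.9, 17.4, 52.1 and 23.8 TPM, 2.19-fold lower in the refed pair (2.09 to 2.29). In the fasted pair Acacb was 1.1-fold higher in TPM but 1.05-fold lower in FPKM. The refed table holds 6 genes of the fatty acid synthesis list, these carboxylases and Acly, Fasn, Elovl6 and Aacs, and the other 18 are in neither table.

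In triglyceride synthesis, where 13 of the 19 listed genes are in neither table, the directions differed. Pnpla5, a relative of Pnpla3, stood at 0.04, 0, 12.7 and 6.24 TPM in the same order and was 2.03-fold lower in the refed pair (1.68 to 2.47), as Pnpla3 was lower. Gpat3, an acyltransferase that starts glycerolipid synthesis, stood at 25.5, 20.4, 0.92 and 2.10 TPM and was 2.28-fold higher in the refed targeted library (1.48 to 3.60) on 31 and 71 reads. Like Lpin1, it was lower in the refed than in the fasted control library, by 27.7-fold (19.4 to 41.0).

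Gpd1, which makes glycerol 3-phosphate, stood at 84.2, 199, 80.8 and 87.5 TPM and was 2.37-fold higher in the fasted targeted library (2.26 to 2.48). By FPKM it was 2.05-fold higher, and the authors' deposited log2 ratio was 1.06, both below that interval and only just past 2-fold. Mogat1, a monoacylglycerol acyltransferase, is listed at 0 TPM in the fasted control and at 1.32, 0.29 and 0.78 TPM in the fasted targeted, refed control and refed targeted library. It is the other gene of the list that was higher in the fasted table.

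Of the 6 listed genes of NADPH supply, 5 are in neither table, and the remaining one, G6pdx, was also lower in the refed targeted library. G6pdx, the NADPH-forming first enzyme of the pentose phosphate pathway, stood at 4.16, 3.91, 34.1 and 14.5 TPM and was 2.35-fold lower in the refed pair (2.08 to 2.65). Among regulators, Thrsp, a small protein that promotes lipogenesis, had the highest TPM of the 15 listed genes in both refed libraries. It stood at 55.4, 89.4, 1899 and 834 TPM and was 2.28-fold lower in the refed pair (2.17 to 2.38). Pparg, a nuclear receptor of fat storage, was 2.38-fold higher in the refed pair (1.70 to 3.40), at 3.16, 5.22, 2.40 and 5.72 TPM. Of the 18 listed regulators, 16 are in neither table, among them Srebf1 and Mlxipl, which encode SREBP-1c and ChREBP.

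**Figure D4:**
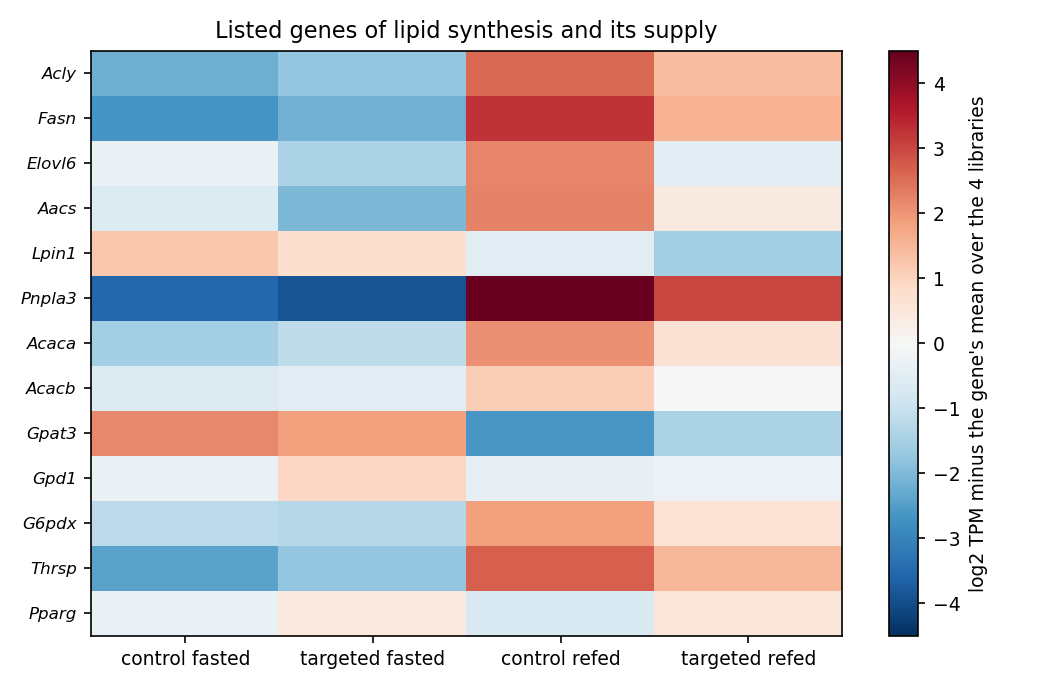
Log2 TPM minus the gene's own mean over the 4 libraries (colour, from blue for low to red for high) for the 13 listed pathway genes with TPM above 0 in every library; columns are the 4 libraries. Lpin1 and Gpat3 are red in the fasted and blue in the refed columns, the reverse of Acly, Fasn, Aacs, Pnpla3, Acaca, G6pdx and Thrsp.

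The shapes of the 6 profiles over the 4 libraries were compared by the Euclidean distance between centred log2(TPM + 0.1) values, a description over 4 libraries. The closest pairs were Acly with Fasn (0.93) and Elovl6 with Aacs (1.08), and the most distant was Lpin1 with Pnpla3 (9.04). The pair of Acly and Fasn had the higher fasted level in the targeted library, and the pair of Elovl6 and Aacs the lower. Distances from the mean profile of the 6 genes ran from 0.85 for Aacs to 4.04 for Pnpla3 and 5.02 for Lpin1.

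Among the other genes with at least 1 TPM in a library, the 10 nearest to the mean profile were Slc2a4 (0.30), Fdps (0.41), Mvd (0.57), Cyp26a1 (0.63), Adgrf1 (0.65), Acaca (0.67), Angptl8 (0.68), G6pdx (0.69), Lmntd2 (0.75) and Sqle (0.92). All 10 are in the refed table and lower there, which the choice of the 6 genes favours. Slc2a4, the insulin-regulated glucose transporter gene, stood at 0.12, 0.05, 2.46 and 0.57 TPM in the fasted control, fasted targeted, refed control and refed targeted library. Its fasted levels are about the size of the pseudocount of 0.1 TPM, so its place as the nearest gene depends on that setting. Angptl8, a secreted protein made after feeding, stood at 7.82, 10.3, 122 and 56.1 TPM. With a pseudocount of 1 TPM, 6 of the 10 were the same.

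Fdps, Mvd and Sqle belong to cholesterol synthesis, another pathway under the control of SREBP factors. The 7 listed genes of that pathway were 1.99-fold (Hmgcs1) to 2.84-fold (Idi1) lower in the refed targeted library in TPM, a range that holds Acly, Lpin1 and Pnpla3 and lies below Fasn, Aacs and Elovl6. Their refed over fasted ratios in control liver ran from 5.26 for Acat2 to 22.4 for Sqle, which Acly, Fasn and Pnpla3 exceeded. A difference between the pathways was not tested, since each gene has 1 value per group.

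The deposited annotation gives the 6 genes few terms in common. In its biological process column, lipid metabolic process is listed for 5 of the 6 and for 19 other genes of the refed table, of which 10 were lower, beside 21.8% of the whole table. Fatty acid biosynthetic process is listed for Acly, Fasn and Elovl6 and for 1 other gene of the refed table, Acaca. Among its KEGG pathway terms, glycerolipid metabolism is listed for Lpin1 and Pnpla3 and for Lpl and Gpat3, and these last were higher. In the shorter second sheets, Acly, Fasn, Elovl6 and Lpin1 are among 33 refed genes and Elovl6 is among 14 fasted genes.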

How the data were processed

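Total RNA came from liver by TRIzol extraction, per the labels' protocols, with 1 library per group. TPM and FPKM per gene and library were deposited by the authors with 2 decimals, per the file headers. The log2 ratio and the p-value of targeted over control were also deposited by the authors. The aligner, counter, annotation and build were not given in the sources used here. Each first sheet holds only genes with an absolute log2 ratio of at least 1 and p-values up to 2.43e-04 (fasted) or 1.46e-04 (refed), tested on the files. Genes outside both tables were not analysed here.

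The deposited p-values, at a relative tolerance of 0.001, follow a doubled Audic-Claverie tail for whole reads whose ratio equals the deposited log2 ratio within 1e-06 in 582 of 701 fasted and 202 of 263 refed genes with a p-value above 0. They compare reads of 2 libraries, not conditions, and are not used as tests. On simulated reads of known library ratio, which were whole and above 0 and therefore easy to solve, 705 of 705 fasted and 274 of 274 refed genes were recovered. Total reads were estimated from these reads, FPKM and the lengths of genes with 1 transcript in GENCODE M21, over 22 to 85 genes per library. The authors' lengths are not known, so these totals are approximate.

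Ratios were computed from TPM with Python 3.11.15 and scipy 1.17.1. Exact Clopper-Pearson 95% intervals of the read ratio were moved to the TPM ratio. For Elovl6 in the refed pair, Lpin1 in the fasted pair and every refed over fasted ratio, reads were scaled by FPKM from the pair that gave them. For Acly, Fasn, Pnpla3, Acaca and Thrsp, whose p-value is 0 in the files, the fewest reads that such a p-value allows (below 2.2e-308) were used, which gives the widest interval. Intervals cover counting error only, because 1 library per group gives no spread between mice. Without molecular identifiers several reads can come from 1 molecule, so they may be too narrow even for counting error. A ratio was counted past 2-fold at an absolute log2 ratio of 1.

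The 6 genes, the lists and the marker genes were chosen with earlier results of these data known. A further pathway list is not reported here. Named were the 6 genes, listed pathway genes in either table and the 10 genes nearest in profile with at least 1 TPM in a library. FPKM, pseudocounts of 0.5 and 1 TPM, the authors' ratio and a minimum of 1 TPM were tried as alternatives.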

Additional observations from a re-analysis of the deposited data

Results flagged for a closer look

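With 1 library per group, none of the following differences between feeding states or genotypes was tested. The genotype ratio pointed in opposite directions in the fasted and refed states for 6 of the 13 named pathway genes with TPM above 0 in every library, near the 43.8% of such genes in the refed table, so opposite directions were not particular to them. The refed minus fasted difference of the log2 ratio of targeted over control was -1.68 for Acly, -2.17 for Fasn, -1.80 for Acaca and -1.88 for Thrsp, each higher in the targeted library when fasted and lower when refed. The fasted counting interval of Fasn, 0.968 to 2.03, includes no difference, but it rests on the fewest reads allowed, 56 and 68. With more reads it would be narrower, so nothing is read from that inclusion. The difference was -1.26 for Acacb, whose fasted direction is the reverse in FPKM (-0.07). For Gpat3 it was 1.51, with a lower fasted and a higher refed level in the targeted library. The refed over fasted ratio pointed in opposite directions in the genotypes for Pparg, which was lower after refeeding in control and higher in targeted liver, a log2 difference of 0.53 with a counting interval that includes no change in each genotype. Mogat1 went from 0 to 0.29 TPM on refeeding in control liver and had a log2 ratio of -0.76 in targeted liver.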

How the results depend on the processing

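All 6 genes were at least 2-fold lower in the refed and 2 of 6 in the fasted targeted library with TPM, FPKM, pseudocounts of 0.5 and 1 TPM and the authors' deposited ratio. The count of genes at least 2-fold higher after refeeding was 5 in control liver under TPM, FPKM and both pseudocounts, and in targeted liver 4, or 5 with FPKM. A difference between states of at least 1 on the log2 scale was seen for 4 of the 6 genes, Pnpla3 among them on 0.38 and 0.30 TPM, or 3 with FPKM. Of the 13 listed pathway genes past 2-fold in the refed table, 11 were past it with a pseudocount of 0.5 TPM and 10 with 1 TPM. Of the 10 genes nearest in profile, 6 were shared with a pseudocount of 1 TPM and 10 with FPKM. Of 56 single-gene ratios, 53 have a counting interval. FPKM moved 17 of these beyond it, moved no ratio by more than 0.27 on the log2 scale, and changed the sign of 2, Acacb between fasted genotypes and Gpd1 between control libraries (-0.06 to 0.03). A pseudocount of 1 TPM moved 5 beyond it, in Pnpla3, Gpat3 and Acaca, and the largest move, 4.59, was in Pnpla5, which has no interval there. No paired analysis was possible because each group has 1 library, and for the same reason no replicate could be left out. The authors' ratio for refed over fasted control is held for 2 of the 6 genes, so it gave no count over the 6. The 2 printed decimals limit Pnpla3, Pnpla5 and Mogat1 in the fasted libraries.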

Other observations

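Of the 18 genes on a list of fatty acid oxidation and ketogenesis, 4 are in the refed table, and 14 were not analysed here. Cyp4a14 and Cyp4a31, hydroxylases of fatty acid omega oxidation, and the thioesterase gene Acot1 were 3.66-fold, 3.86-fold and 2.17-fold higher in the refed targeted than in the refed control library. Fgf21 was lower, so 3 of the 4 were higher, near the 78.2% higher over the whole refed table. Cyp4a14, Cyp4a31 and Acot1 were lower after refeeding in both genotypes. Cyp4a14 stood at 3674 TPM in the fasted control, 4604 in the fasted targeted, 9.84 in the refed control and 36.0 in the refed targeted library. Fgf21, a fasting hormone of liver, stood at 21.3, 23.7, 5.57 and 1.97 TPM in the same order, so it was lower in both the refed and the targeted refed library, as Lpin1 was. Acot1 and the Cyp4a genes belong to families of near copies, which makes the value of any 1 of them uncertain.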
